A study of Mus musculus with 108 samples.

Results

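Promoter sites were examined that gave no reporter fragment in embryonic stem cells (ES) and became positive at a later stage of differentiation towards blood. Overlapping promoter fragments of 95 sorted libraries were merged into 17863 promoter sites, and a site was kept when no gate of ES listed a fragment on it and when cells with yellow fluorescence listed a fragment in 2 or more replicates of at least 1 later stage. This left 2278 sites (12.8% of all promoter sites) near the starts of 2089 genes, with 26372 of the 781666 distinct promoter fragments (3.37%). The fragments listed in ES and the positive fragments of later stages chose these sites, so the pattern over stages in the complete data is a description without a test.

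The question was which open chromatin pieces raise the activity of a reporter at successive stages of blood specification from HM-1 cells, a mouse ES line with a defective Hprt gene. Tn5-released fragments of open chromatin were placed before the HSP68 minimal promoter and a Venus-YFP gene, and each reporter was integrated at Hprt, which it repaired. Cells were sorted as ES, as hemangioblasts (HB), as a first and a second stage of hemogenic endothelium (HE1 and HE2) and as hematopoietic progenitors (HP), all obtained by in vitro differentiation. At each stage replicates 1 to 4 were split into Negative, Low, Medium and High YFP gates and replicate 5 into Negative, Low and Medium/High. All groups thus share the cell line, the reporter and its locus, and their labels differ in stage and gate. Libraries also differed in depth, and by the methods the culture medium changed along the differentiation. Low, Medium, High and Medium/High are together called positive. The labels do not say that replicates came from separate cultures, so p-values measure the spread between these samples, which may be technical.

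A promoter is the stretch around a transcription start where general factors and RNA polymerase assemble. Promoters of housekeeping genes usually lie in CpG islands and are open in all cells, whereas promoters and nearby elements of tissue genes open when lineage factors bind. In blood specification the ETS factor Etv2 and the hemangioblast factors Tal1, Lmo2 and Gata2 act early, AP-1 and TEAD factors cooperate in hemogenic endothelium, and Runx1 together with Spi1 (PU.1) and Gfi1 factors then replaces the endothelial by the blood program. In this assay a promoter fragment is tested as an enhancer in front of a foreign minimal promoter, so a positive fragment is not a measure of the transcription of its gene.

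Sequence stretches of 5 sites were chosen to show what they look like at genes of these programs. Each is the 200 bases of the site that later-stage fragments covered most often, taken from the mm10 genome and printed 5′ to 3′ on the strand of the gene, with exact matches to short motifs in capitals. AGATAA was used as the motif of GATA factors. For ETS factors it was GGAAGT. The RUNX motif was TGTGGT. For AP-1 it was TGANTCA, and both strands were searched for each. Itga2b, which encodes the platelet and progenitor integrin CD41, is shown on the minus strand at chr11:102470081-102470280, from -158 to 41 relative to the start. Lyl1, a basic helix-loop-helix factor of blood progenitors, is on the plus strand at chr8:84701617-84701816, 160 to 359 bases after its start, and Gata2 is on the plus strand at chr6:88198618-88198817, 284 to 483 bases after its start. Tie1, an endothelial receptor kinase, is on the minus strand at chr4:118489850-118490049, from -256 to -57. Junb, an AP-1 subunit, is on the minus strand at chr8:84978706-84978905, from -187 to 12.
Itga2b: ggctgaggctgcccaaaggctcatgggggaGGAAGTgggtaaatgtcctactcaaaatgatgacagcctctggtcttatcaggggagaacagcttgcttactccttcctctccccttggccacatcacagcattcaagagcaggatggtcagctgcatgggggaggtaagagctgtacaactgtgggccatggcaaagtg
Lyl1: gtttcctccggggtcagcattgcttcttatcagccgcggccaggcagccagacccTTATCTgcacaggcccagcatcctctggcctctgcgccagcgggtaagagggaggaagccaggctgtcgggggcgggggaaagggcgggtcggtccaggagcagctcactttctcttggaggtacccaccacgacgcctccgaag
Gata2: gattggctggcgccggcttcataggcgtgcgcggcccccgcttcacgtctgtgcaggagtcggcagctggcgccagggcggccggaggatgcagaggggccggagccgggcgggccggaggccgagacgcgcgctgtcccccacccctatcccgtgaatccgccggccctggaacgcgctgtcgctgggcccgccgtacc
Tie1: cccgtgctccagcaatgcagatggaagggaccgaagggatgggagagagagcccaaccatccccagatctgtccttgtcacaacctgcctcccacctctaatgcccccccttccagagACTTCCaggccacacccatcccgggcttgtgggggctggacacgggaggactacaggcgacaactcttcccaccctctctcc
Junb: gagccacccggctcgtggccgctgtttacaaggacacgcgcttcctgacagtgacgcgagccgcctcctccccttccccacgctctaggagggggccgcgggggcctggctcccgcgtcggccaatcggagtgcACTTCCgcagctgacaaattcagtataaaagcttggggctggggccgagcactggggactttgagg
The ETS letters stand in the Itga2b, Tie1 and Junb stretches, and the GATA letters in that of Lyl1. Letters that differ from a motif by a base were not marked, such as TTATCA in the Itga2b and Lyl1 stretches. Lower case is thus no sign that a variant of a motif is absent. The Gata2 stretch, at 75.5% GC, holds none of these exact letters, which says only that they are not in this window.

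The sorted libraries held 353 to 86113 promoter fragments (median 5531). Replicates 1 and 2 were far deeper (medians 39666.5 and 27839.5) than replicates 3, 4 and 5 (medians 1430.5, 1249 and 741), and 2118 of the 2278 sites (93.0%) qualified through replicates 1 and 2, 1228 (53.9%) through these alone. Each fragment is listed once, so values are numbers of distinct fragments and carry no read depth. With 191768 distinct promoter fragments in ES, the absence of a site allows a share of up to 0.00156% of them (3 fragments, counting error only, without molecular identifiers). Within HE1, 78.3% of the promoter fragments of Medium replicate 2 were also in Negative replicate 1, and 83.7% of those of Negative replicate 3 were also in Low replicate 4, so HE1 replicates are not fully separate. Leaving these 4 libraries out gave 2163 sites.

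The plasmid libraries held these sites at every stage. The cloned material of each stage was sequenced in the entry vector (pDONR) and the reporter vector (pSKB), with 1 library each and so without a replicate check. The share of promoter fragments that lay on the 2278 sites was 4.35% in the ES pSKB library (95% Wilson interval 4.29% to 4.41%) and 4.37% to 4.55% in the pSKB libraries of the later stages, and it was 4.32% in the ES pDONR library (4.29% to 4.36%) and 4.55% to 4.69% in the later ones. A fragment of an ES plasmid list lay on 2200 of the 2278 sites (96.6%). The ES pSKB library alone held fragments on 90.6% of them, with a median of 6 fragments a site. For sites that were positive later and had ES fragments, the values were 99.9% and 25. Of the promoter fragments recovered from ES cells, 34.2% were identical to a fragment of the HE1 pDONR list and 9.66% to one of the ES pDONR list. Nearly all of the sites were therefore listed in plasmid material of ES, whereas none was listed in sorted ES cells, as the rule demands.

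The sites were narrower, thinner in fragments and farther from the start than the 12469 comparison sites, which met the same rule for later stages but had ES fragments. Their median width was 532 bp against 874 bp, and they held a median of 7 distinct fragments against 45. The median distance from the midpoint of a site to the nearest start was 224 bp against 73 bp, with 31.4% and 60.1% within 100 bp. The midpoint lay in an annotated exon in 41.8%, in an intron in 37.5% and outside genes in 20.7% of the sites, against 56.8%, 18.3% and 24.9% of the comparison sites. These differences are descriptions without a test, and the rule takes in mainly sites with few fragments. Among sites positive in 2 or more replicates of a later stage, 720 had a fragment in exactly 2 of the 20 positive replicate sets. Of these 69.7% had none in ES, and of the sites with 11 to 20 sets 1.41% had none. Just inside the rule stood 502 sites with 2 positive sets (median 3 fragments), and just outside it 545 sites with a single ES fragment (median 8 fragments).

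Many of the 2278 sites were second sites of genes that had a listed promoter site in ES as well. This held for 975 sites (42.8%), and 845 (37.1%) lay within 1000 bp of an ES-listed site. Genes with 1 site, such as Itga2b, Lyl1, Tie1, Spi1 and Hhex, had no promoter fragment in ES. At Klf10, in contrast, a neighboring site held 34 ES fragments, and other sites held 21 at Egfl7, 16 at Cbfa2t3, 12 at Etv2, 10 at Junb, 3 at Pecam1 and 2 at Bcl11a. Another ES-listed site was found for the genes of 11 of 19 blood factor sites, 0 of 9 blood cell sites, 8 of 17 endothelial sites and 3 of 11 mesoderm sites.

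The sites were spread over the later stages. Positive fragments in 2 or more replicates were found on 1001 sites in HB, 1318 in HE1, 1253 in HE2 and, for HP, 909, with 301 sites in all of these stages. The most frequent patterns of 2 or more replicates were HB without the others (330 sites) and HE1 without the others (327 sites). No positive fragment at another stage was found for 256 HB sites, 151 HE1 sites, 77 HE2 sites and 117 HP sites. Counting every gate, 573 sites (25.2%) had fragments at 1 later stage and 602 (26.4%) at all 4. These are numbers of listed sites, and libraries of different depth enter them.

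Sites near blood and vessel genes were chosen at a higher share than promoter sites in general. Among the sites next to a list of 26 blood transcription factor genes, 19 of 47 (40.4%) were without ES fragments and positive later, beside 12.8% of all promoter sites, and next to genes of blood cells 9 of 25 were (36%). Endothelial genes gave 17 of 40 (42.5%) and mesoderm genes 11 of 32 (34.4%), while AP-1 and TEAD genes gave 3 of 23 (13.04%), pluripotency genes 4 of 27 (14.8%), ribosomal protein genes 6 of 69 (8.70%) and proteasome genes 1 of 34 (2.94%). The lists were drawn up with results of these data known, so the shares are descriptions. The chosen sites of these lists held medians of 13, 7, 25 and 7 fragments for blood factors, blood cell genes, endothelium and mesoderm, beside 7 for all 2278. Among sites positive in 2 or more replicates of a later stage, the blood factor, blood cell, endothelial, mesoderm and AP-1 and TEAD lists together had 25 of 29 sites with 2 to 4 positive sets without ES fragments (86.2%, against 61.7% of all such sites), 18 of 38 with 5 to 8 sets (47.4%, 23.3%) and 16 of 72 with 9 to 20 sets (22.2%, 3.19%). Without replicate 1 the blood factor share was 23.4% beside 5.67% of all sites, and without replicate 2 it was 23.4% beside 6.09%. Under the same omissions the endothelial share was 22.5% and 20%, the mesoderm share 9.38% and 12.5%, the blood cell share 12% and 16%, the AP-1 and TEAD share 4.35% in both, and the pluripotency share 3.70% and 11.1%.

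**Figure D1:**
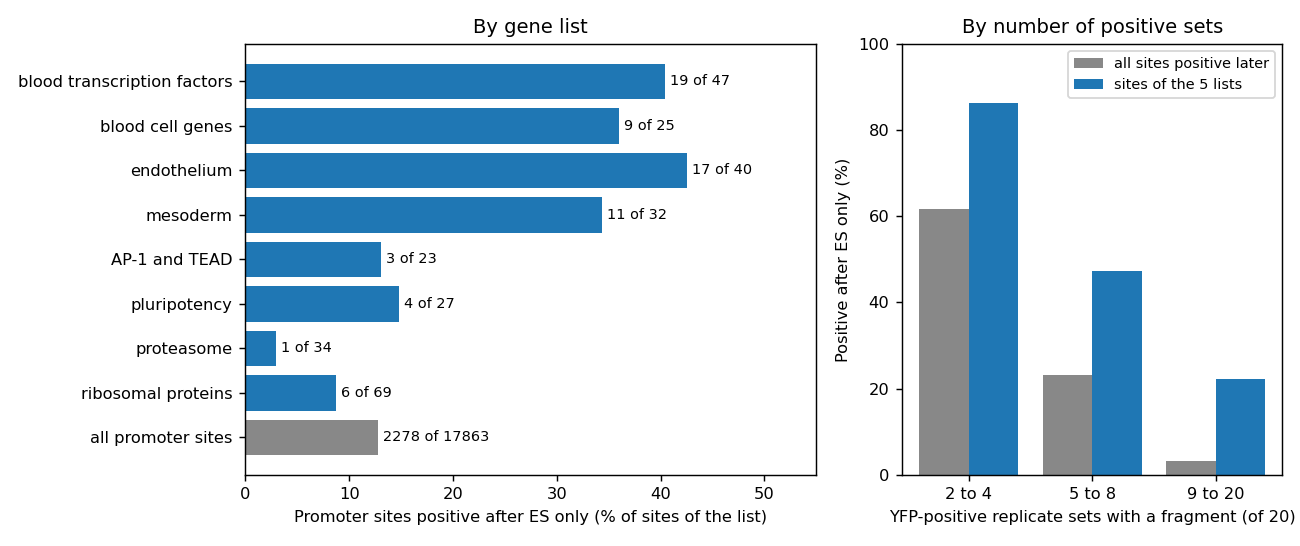
Left, share of promoter sites in each gene list that had no ES fragment and were positive in 2 or more replicates of a later stage, with counts. Right, among sites positive in 2 or more replicates of a later stage, the share without ES fragments for all such sites and for the 5 blood, endothelial, mesoderm and AP-1 and TEAD lists together, by the number of positive replicate sets; the lists lie above all such sites in each class, at 86.2% against 61.7%, 47.4% against 23.3% and 22.2% against 3.19%.

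Among the blood transcription factors, Lyl1 gave one of the widest patterns. Its site (chr8:84701283-84702064, midpoint in an exon) held 108 fragments, and positive fragments were found in 15 of 20 replicate sets. In HB the 5 replicates had 23, 14, 3, 1 and 2 positive fragments. In HE1 they had 18, 13, 0, 0 and 1, in HE2 19, 16, 3, 0 and 1 and in HP 18, 7, 0, 0 and 1. Replicates 1 and 2 were high and replicates 3 to 5 low at every stage, and Negative cells also listed the site, with 14, 12, 10 and 7 fragments in HB, HE1, HE2 and HP.

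Cbfa2t3, the ETO2 corepressor that works with Tal1 and Gata factors, had the largest number of fragments of all 2278 sites, 152. Its positive fragments in HB numbered 24, 21, 4, 2 and 1 over the replicates and in HE1 34, 26, 0, 0 and 0. A second chosen site of the gene (chr8:122676662-122677479), in an intron about 1 kb after a start, had no fragment of any gate in HB and 6, 7, 0, 0 and 0 positive fragments in HE1. Gata2 had 8, 7, 3, 0 and 0 positive fragments in HB, 13, 10, 0, 0 and 0 in HE1, 12, 7, 0, 0 and 0 in HE2 and 6, 2, 0, 0 and 0 in HP. Zinc finger factors of lymphoid and fetal globin control, Ikzf1 and Bcl11a, were listed at all later stages, with 33 fragments on the Ikzf1 site and 33 and 26 on the Bcl11a sites.

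Several sites had no fragment at one later stage or more. Hhex, a homeobox factor of endothelium and blood, had 23, 20, 1, 1 and 0 positive fragments in HE1, 17, 10, 1, 0 and 0 in HE2 and 19, 3, 0, 0 and 1 in HP, and none in any HB gate. Spi1, the myeloid master regulator PU.1, had none in HB either and 3, 2, 0, 0 and 0 in HE1, 3, 2, 0, 0 and 0 in HE2 and 1, 0, 0, 0 and 0 in HP. Of the 19 blood factor sites, 8 had no fragment of any gate in HB, 5 in HE1, 5 in HE2 and, for HP, 1. The corresponding shares, 42.1%, 26.3%, 26.3% and 5.26%, stand beside 45.8%, 32.6%, 30.4% and 37.8% of all 2278 sites.

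Of the 9 blood cell sites, 7 had no HB fragment (77.8%, beside 45.8% of all 2278 sites). The other 2 were at the platelet genes Itga2b and Gp1ba. No fragment was listed on 3 of the 9 in HE1, 2 in HE2 and, for HP, 1. These shares were 33.3%, 22.2% and 11.1%, beside 32.6%, 30.4% and 37.8% of all. Itga2b had 127 fragments. Its positive fragments over the replicates were 15, 15, 5, 1 and 0 in HB, 19, 26, 0, 2 and 1 in HE1, 21, 25, 2, 1 and 1 in HE2 and 24, 7, 0, 0 and 0 in HP. Gp1ba, the platelet receptor of von Willebrand factor, had 7, 9, 2, 0 and 0 in HB and 19, 16, 0, 0 and 0 in HE1. Mpo, the myeloperoxidase of granulocytes, had none in HB, 4, 4, 0, 0 and 0 in HE1 and 1, 0, 1, 0 and 0 in HP. The platelet gene Pf4 and the leukocyte genes Rac2, Hcls1 and Laptm5 had 3 to 8 fragments a site, so their stage patterns rest on few fragments.

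Of 17 endothelial sites, 15 had a positive fragment in HE1 (88.2%), 16 in HE2 (94.1%), 13 in HP (76.5%) and 6 in HB (35.3%), where all 2278 sites had the same order, with 66.9%, 68.6%, 60.2% and 53.3%. No fragment of any HB gate lay on 11 of the 17 (64.7%, beside 45.8% of all). Tie1 had 17, 21, 0, 0 and 0 positive fragments in HE1, 16, 7, 1, 0 and 0 in HE2, 11, 1, 0, 0 and 0 in HP and none in HB, with 24 Negative fragments in HE1. Pecam1, the junction protein CD31, had none in HB and 11, 11, 0, 1 and 0 in HE1. Cdh5, which encodes VE-cadherin, had 7, 12, 0, 0 and 0 in HE1, 8, 5, 0, 0 and 0 in HE2 and no fragment of any gate in HB or HP. Egfl7, Esam and Sox18 also had none in HB, whereas the SoxF factors Sox7 and Sox17, the Notch ligand Dll4, the nitric oxide synthase Nos3 and Vwf had some.

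Etv2, which starts the hemangioblast program, had a different profile. Its site 418 bp upstream of the start had 4, 3, 2, 0 and 0 positive fragments in HB, no fragment of any gate in HE1, 8, 4, 0, 0 and 0 in HE2 and 3, 1, 0, 0 and 0 in HP. The HE1 libraries together held the largest number of promoter fragments, but replicate 3 had 7775 in HE1 against 28575 in HB. The site held 15 fragments in all, and another Etv2 site held 12 ES fragments. Why the site was not listed in HE1 was not tested.

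Of 11 sites of mesoderm and cardiac genes, 8 had positive fragments in HB (72.7%), 8 in HE1 (72.7%), 7 in HE2 (63.6%) and, for HP, 6 (54.5%, beside 60.2% of all 2278). Hand1 had 6, 8, 0, 0 and 0 positive fragments in HB and 6, 10, 0, 0 and 0 in HE1 but none in HP, and Foxf1 (4, 2, 0, 0 and 0 in HB) and the cardiac factor Nkx2-5 (3, 2, 0, 0 and 0 in HB) had none in HP either. Gata4 had fragments at every later stage, with 3, 7, 3, 1 and 0 in HB and 13, 13, 0, 0 and 0 in HE1. Whether the number of missed sites differed between lists and stages was not tested.

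**Figure D2:**
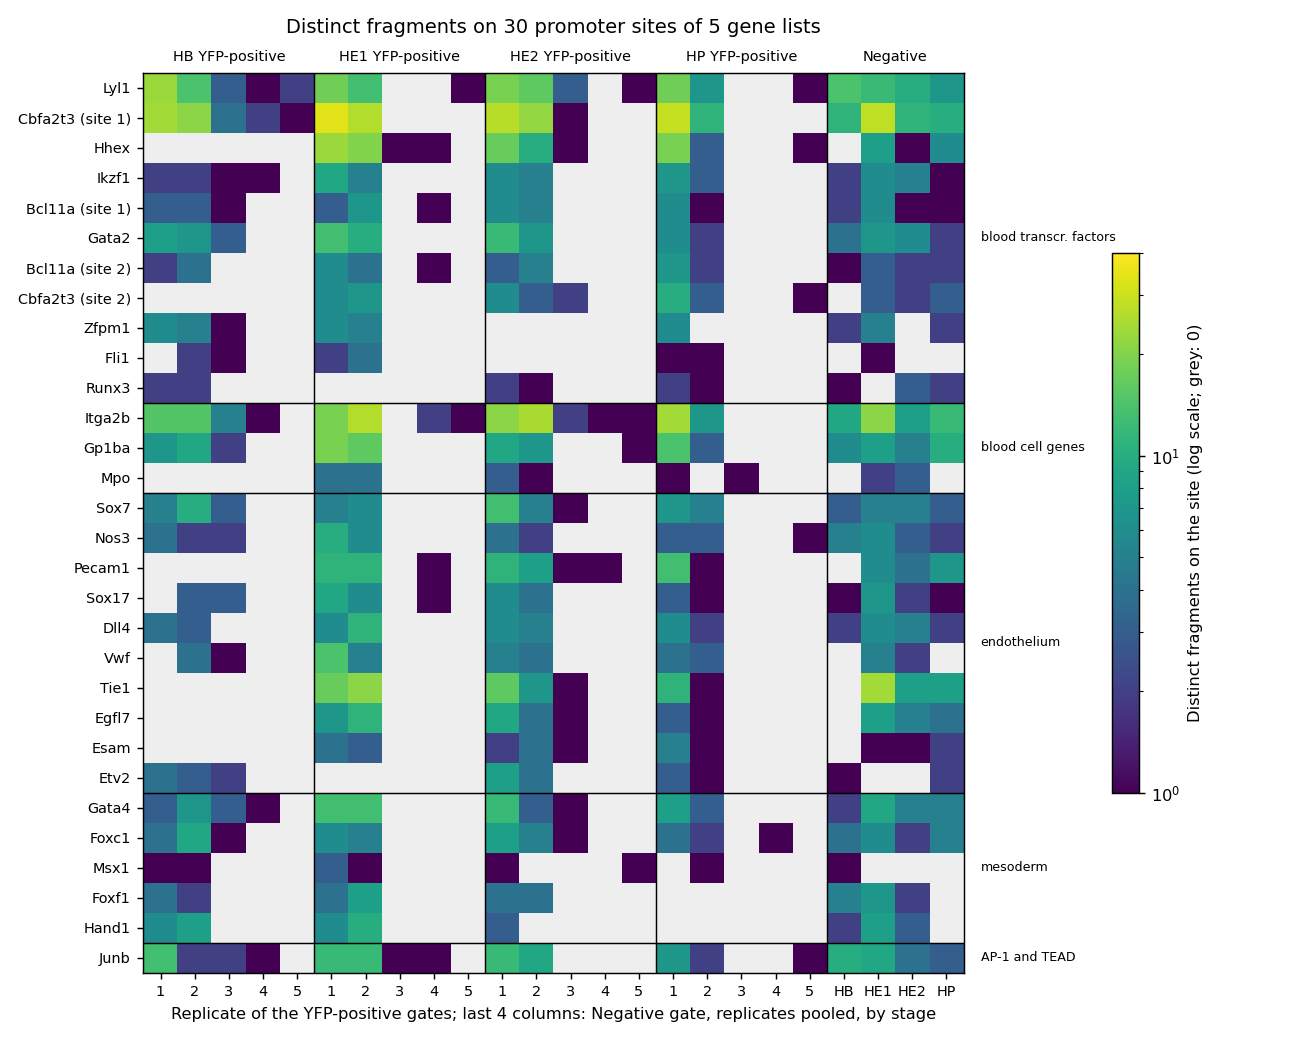
Number of distinct fragments (color, log scale, grey for 0) on 30 promoter sites of the 5 gene lists, in each positive replicate set of HB, HE1, HE2 and HP and, in the last columns, in the pooled Negative libraries of each stage. Sites such as Hhex, Tie1 and Pecam1 are grey in HB in positive and Negative cells alike, while Lyl1, Itga2b and Gata2 are listed at every later stage; replicates 1 and 2 hold most fragments.

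The sites with the most positive sets lay mostly near genes outside these lists. An antisense transcript, Gm16537, led with 17 of 20 sets and 24 fragments. Nek8, a kinase of the primary cilium, followed with 16 sets, and Aebp2, a cofactor of Polycomb repressive complex 2, the zinc finger gene Zbtb42 and Rpl36 of the large ribosomal subunit had 14 each. Podxl, a sialomucin of endothelium and blood progenitors, had 13 sets and 99 fragments, with 10, 10, 5, 0 and 0 positive fragments in HB and 23, 20, 0, 1 and 0 in HE1. Aatk, a kinase gene whose site lay in an intron, had 6, 2, 2, 0 and 0 in HB and 30, 27, 0, 0 and 1 in HE1.

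Sites of a single stage were mostly small, with Klf10 (59 fragments) and mt-Ti (52) as exceptions. Klf10, a zinc finger factor, is induced by TGF-beta. Its site had 33, 25, 1, 2 and 0 positive fragments and 17 Negative ones in HE1 and none in any gate of HB, HE2 or HP, which makes it the largest of the 573 sites listed at 1 later stage. Among HB sites, Tnk2, a non-receptor kinase gene, was positive in all 5 replicates (2, 1, 4, 1 and 1 fragments). The Tnk2 site held 5 distinct fragments in all. Nfkb2, an NF-kappaB subunit, was positive in 4 replicates (2, 8, 2, 1 and 0). A mitochondrial site at the isoleucine tRNA gene mt-Ti had 18, 26, 13, 0 and 2 in HB. Among HP sites, the Wnt receptor gene Fzd8 had 9, 6, 1, 0 and 1 positive fragments, and Tmem144 had 1, 0, 9, 7 and 7 with most fragments in replicates 3 to 5. HE2 was led by Slc24a3, Pde5a and Cacng4 with 6 to 17 fragments a site. Most of these genes also had another promoter site with ES fragments. Such sites held 37 at Nfkb2, 14 at Slc24a3, 13 at Pde5a, 12 at Fzd8, 7 at Tnk2 and 3 at Tmem144. Cacng4 and mt-Ti had no ES-listed site.

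Negative cells listed many of the sites as well. A Negative library of a later stage listed 1851 of the 2278 sites (81.3%), beside 84.1% of all promoter sites and 98.0% of the comparison sites. At each stage, of the sites with a positive fragment, 62.9% (HB), 82.2% (HE1), 58.3% (HE2) and 60.9% (HP) were also in the Negative lists of that stage. Of the sites without a positive fragment at the stage, 1.88% (HB), 1.33% (HE1), 3.22% (HE2) and 4.96% (HP) were. For comparison sites the same shares were 85.9% to 96.2% with a positive fragment and 1.43% to 7.50% without one. Few sites were thus listed by Negative cells alone at a stage, while 271 to 652 were listed by positive cells alone. Positive fragments chose the sites, and each replicate has several positive libraries but a single Negative one at a stage. The rule and the sampling thus favor such an excess, and its cause was not tested. Of the comparison sites, 448 to 1658 were listed by positive cells alone and 9 to 44 by Negative cells alone. Of the distinct fragments on the sites, 22.3% were seen in both positive and Negative libraries. The methods state that fragments were limited to ATAC-seq peaks without naming the stage of the peaks, so the activity of a reporter at a stage and the listing of its site at that stage cannot be told apart.

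**Figure D3:**
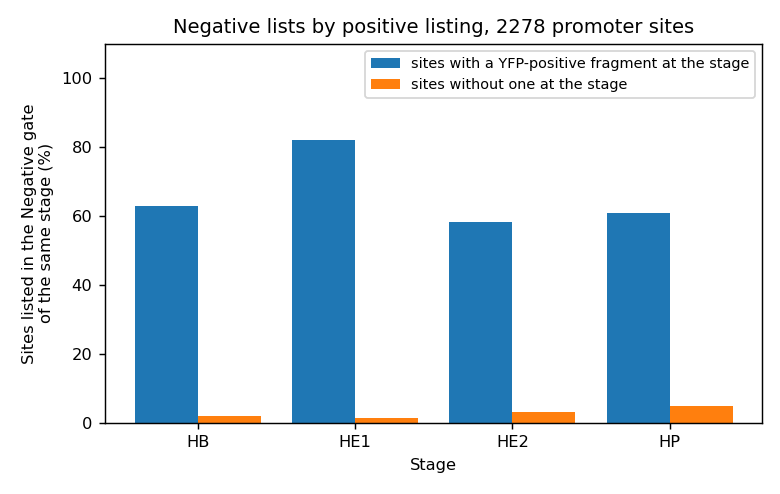
Share of the 2278 promoter sites listed by Negative cells of HB, HE1, HE2 and HP, for sites with and without a positive fragment at the same stage. The first group lies between 58.3% and 82.2% and the second between 1.33% and 4.96%.

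To measure the stage difference on replicates that had not chosen the sites, the rule was applied to 4 replicates and the fragments of the fifth were counted on the sites it gave (1013 sites without replicate 1, 1087 without replicate 2 and 2268 to 2278 without replicates 3, 4 or 5). With all gates pooled, ES had 25.8, 25.4, 47.0, 28.7 and 13.9 distinct fragments on such sites per 10000 promoter fragments in replicates 1 to 5. HB had 225, 221, 316, 268 and 270, HE1 246, 251, 332, 319 and 389, HE2 264, 276, 373, 342 and 380 and HP 243, 233, 336, 371 and 338. Every later value lay above every ES value. The ES mean was 28.2 ± 11.9 (SD, n = 5). Later means were 260 ± 39.1 for HB, 307 ± 59.9 for HE1, 327 ± 54.1 for HE2 and 304 ± 62.1 for HP. Each later stage differed from ES by an exact two-sided permutation test (adjusted p = 0.00794 for each of 4 comparisons, the smallest the design allows). This test treats the 5 values of a stage as independent, but each replicate helped to choose the sites of the others. Each replicate was measured on its own set of sites at all stages, so its values are paired. A paired exact sign-flip test gave p = 0.0625 for each later stage, the smallest that 5 pairs allow. For ES and HB, same-numbered replicates also deviated together.

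Replicates were uneven in weight here, since 3 to 247 fragments stood behind an ES value. Without replicate 1 or replicate 2 the difference between ES and HB fell from 232 to 131 and 135 per 10000, that for HE1 from 279 to 201 and 202, that for HE2 from 299 to 158 and 160, and that for HP from 276 to 169 and 178, with an exact permutation p of 0.0286 in each case. With 3 or more positive replicates asked for, the differences were 108, 157, 136 and 144, with an ES mean of 4.51. Without the 4 HE1 libraries that share fragments, the means were 26.5 in ES and 290.1 in HE1. The means are on unequal numbers of fragments, so the share of sites listed was also set against that of all promoter sites. Replicate 1 listed 13.03% of its 1013 sites in ES, against 69.1% of all promoter sites. It listed 65.4% in HB (73% of all), 74.8% in HE1 (77.8% of all), 76.5% in HE2 (75.9% of all) and 70.1% in HP (75.8% of all). Replicate 2 listed 12.4% of its 1087 sites in ES (69% of all), 64.6% for HB (73.7%), 68.0% for HE1 (74.4%), 68.9% for HE2 (72.6%) and 55.9% for HP (67.3%). In both deep replicates the later stages were nearer to the share of all sites than ES was. In replicate 3 the sites were below all sites at every stage, with 5.22% in ES (57% of all), 24.98% for HB (56.1%), 8.30% for HE1 (25%), 15.3% for HE2 (35.2%) and 3.25% for HP (11.2%). Replicate 4 listed 0.484% in ES (16.3%), 4.44% for HB (17.7%), 8.97% for HE1 (26.5%), 2.73% for HE2 (9.06%) and 8.44% for HP (23.5%), and replicate 5 listed 0.132% in ES (10.3%), 2.25% for HB (9.82%), 3.84% for HE1 (11.2%), 2.60% for HE2 (8.09%) and 4.81% for HP (15.5%).

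The difference was present in Negative cells. ES Negative cells had 29.2 ± 20.9 fragments per 10000 on these sites, from 0 in replicate 5, where 662 fragments allow up to 45.3, to 50.8 in replicate 3. Negative cells had 264 ± 40.7 in HB, 328 ± 87.8 in HE1, 313 ± 67.5 in HE2 and, for HP, 295 ± 76.4 (adjusted p = 0.00794 each, exact permutation test, n = 5). The paired exact sign-flip test gave p = 0.0625 for each of these stages. Their differences from ES, 235, 298, 284 and 266 in the same order, were 146, 205, 159 and 162 without replicate 1 and 151, 215, 170.4 and 183 without replicate 2. Positive and Negative cells of the same stage did not differ beyond their spread: 257 ± 40.8 against 264 in HB, 308 ± 58.6 against 328 in HE1, 334 ± 59.2 against 313 in HE2 and 294 ± 59.0 against 295 in HP, with adjusted p = 0.976 in each (exact permutation test, n = 5). Values of a replicate are paired here as well. The paired exact sign-flip test gave p of 0.3125 (HE1) or more at each stage.

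**Figure D4:**
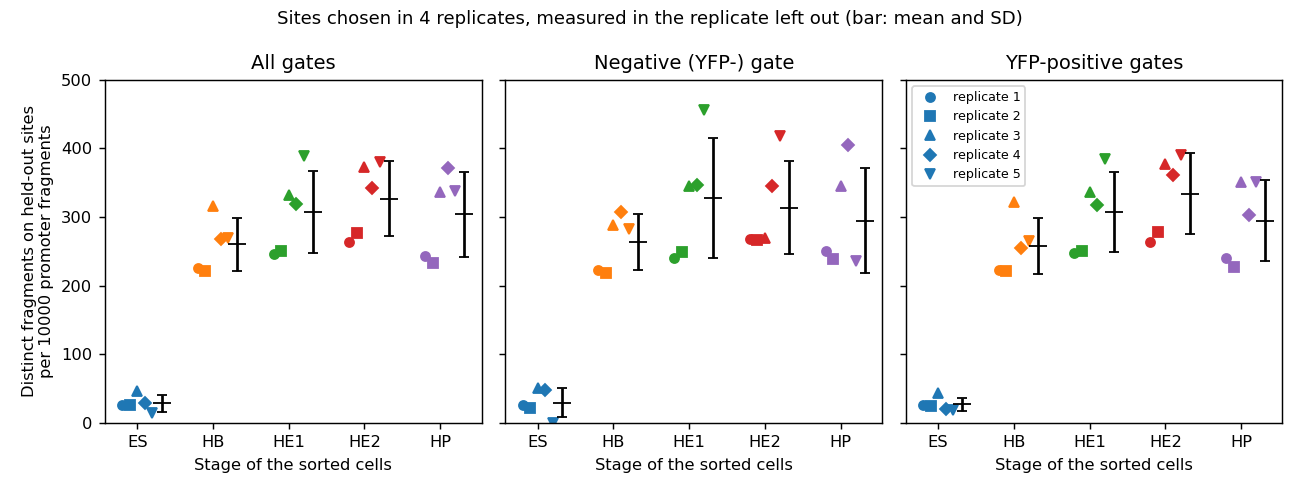
Distinct fragments per 10000 promoter fragments on sites chosen in the other replicates, for all gates, Negative cells and positive cells at each stage; symbols are replicates 1 to 5 and bars give mean and SD (n = 5). Over the panels ES lies between 0 and 50.8, below all later values, and the panels of Negative and positive cells overlap at every later stage.

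Such a gap was not particular to ES. When each other stage in turn was taken as the one without fragments, the held-out value at that stage was again below the mean of the other stages in 5 of 5 replicates. The ratio of the means was 10.6 for ES, 17.1 for HB, 21.9 for HE1, 5.50 for HE2 and 9.66 for HP. By the rule in full, 2278 sites lacked ES fragments, 1765 HB, 1641 HE1, 1618 HE2 and 2005 HP fragments. These sets share sites and libraries and are given without a test.

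High and Low cells gave overlapping values on the sites. These positive fragments, irrespective of gate, also chose the sites, so the test is not independent of the choice as the held-out one is. High or Medium/High cells had 292 ± 50.4 fragments per 10000 on the 2278 sites in HB, against 302 ± 60.4 in Low cells. The values were 348 ± 75.6 against 330 ± 28.2 in HE1, 331 ± 80.0 against 391 ± 63.7 in HE2 and 365 ± 54.6 against 394 ± 108 in HP. None of these differences passed the exact permutation test (adjusted p = 0.778 for each of 4, n = 5). The paired exact sign-flip test, which cannot go below 0.0625 with 5 pairs, gave p from 0.375 (HP) to 0.6875 (HB). By limma, no promoter site passed between High and Low cells at an adjusted p of 0.05 at any stage: 0 of 7689 sites tested in HB, 0 of 8279 in HE1, 0 of 7483 in HE2 and 0 of 5353 in HP (0% each). At an unadjusted p under 0.05 the counts were 39 (0.507%), 23 (0.278%), 3 (0.0401%) and 19 (0.355%), and 0 of the chosen sites was among them. All 4 shares lie far below the 5% expected when no site differs, so the test was conservative on these lists. Its counts of 0 therefore do not show that the gates are alike. Only 236, 350, 279 and 129 of the 2278 sites had fragments in enough sets to be tested, so differences at single sites were mostly not detectable at this depth. The median log2 difference of the tested chosen sites was 0.01 in HB, -0.08 in HE1, -0.02 in HE2 and, for HP, -0.12, beside 0.11, -0.11, -0.01 and -0.06 for all sites tested.

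The sequence of the sites differed from that of the comparison sites in base composition. In windows of 300 bp around the midpoint, the median GC content was 58.0% against 66.0%, and the ratio of observed to expected CpG had a median of 0.50 against 0.81. A ratio over 0.6, which is usual in CpG islands, was found in 41.6% of the windows against 80.3%. For sites within 100 bp of a start the shares were 51.0% and 86.4%. The 151 sites positive in HE1 alone had the lowest median CpG ratio among the single-stage groups, 0.35, while the 301 sites with 2 or more positive replicates at every later stage had 0.67.

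Short motifs were counted as exact letters on both strands. AGATAA stood in 9.85% of the windows of the chosen sites, in 3.19% of those of the comparison sites and in 5.15% of all promoter windows. TGANTCA, the AP-1 letters, stood in 9.01%, 3.81% and 5.21%, TGTGGT (RUNX) in 15.2%, 10.1% and 12.04%, and GGAATG (TEAD) in 13.1%, 9.36% and 10.7%. GGAAGT (ETS) stood in 22.3%, 22.4% and 22.1%. The GC box GGGCGG was in 38.4%, 68.0% and 57.4%, and CCAAT in 25.5%, 31.7% and 30.4%. The exact motifs of the housekeeping factors NRF1 and YY1 were in 0.44% and 0.40% of the chosen windows against 1.42% and 2.13%.

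Base composition moved with these shares, so they were also set side by side at similar GC. Below 50% GC, AGATAA was in 23.8% of 366 windows against 11.4% of 308, and TGANTCA in 19.9% against 10.4%. Between 50% and 60% GC the shares were 12.6% against 7.09% and 10.1% against 6.51%. Between 60% and 70% GC they were 3.03% against 2.40% and 5.58% against 3.44%, and at 70% GC or more AGATAA was in 0.28% against 1.11% and TGANTCA in 0.85% against 2.06%. GGAAGT was in 31.1% against 27.6% in the lowest class, and in 26.97% against 27.7%, 17.5% against 25.5% and 9.32% against 14.1% in the others. TGTGGT was in 21.6% against 18.2%, 19.3% against 14.1%, 11.3% against 10.8% and 4.80% against 5.81%. The GC box was less frequent on the chosen sites in all of these classes, at 6.28% against 14.0% in the lowest and 83.3% against 87.8% in the highest. A match to letters is a description and no evidence of binding.

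**Figure D5:**
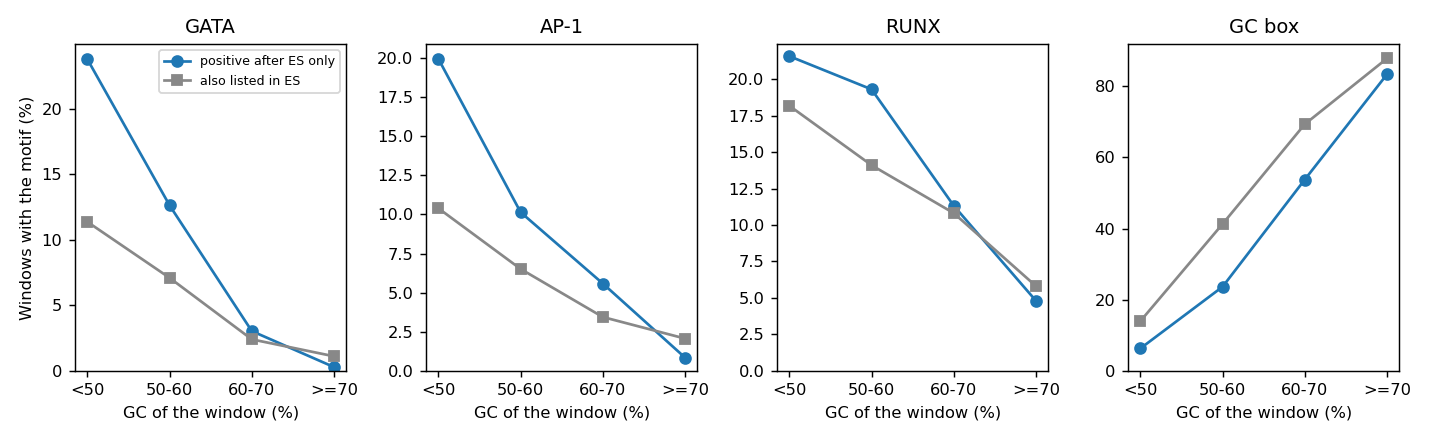
Share of 300 bp windows that hold the GATA, AP-1, RUNX or GC box letters, by the GC content of the window, for the promoter sites positive after ES only and for the comparison sites that also had ES fragments. GATA and AP-1 letters lie above the comparison sites below 70% GC and under them at 70% or more, and the GC box lies under them throughout.

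Motif shares varied with the stage at which a site was positive. TGANTCA was in 17.9% of the 151 sites positive in HE1 alone and in 14.3% of the 77 in HE2 alone, against 5.098% of the HB and 5.98% of the HP sites, and GGAATG in 23.2% and 20.8% against 10.6% and 8.55%. All 2278 sites had 9.01% and 13.1%. The median GC content of these groups was 54.3% (HE1), 55.7% (HE2), 59.0% (HB) and 56.3% (HP), and their shares were not compared at similar GC. AGATAA and TGTGGT were most frequent in the 117 HP sites, at 13.7% and 19.7%, where the HB sites had 8.63% and 11.4%. With 5 to 48 matches behind such a share for any of the GATA, ETS, RUNX, AP-1 and TEAD letters, and groups chosen by their listed fragments, no test was made.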

How the data were processed

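Distinct reporter fragments of sorted HM-1 derived cells were taken from the interval lists the authors deposited, 1 promoter list per library. Per the labels and methods, the authors trimmed reads with Trim Galore, aligned them to mm10 with Bowtie2, processed them with SAMtools and bedtools, annotated them with HOMER, and kept fragments found in the plasmid libraries and in ATAC-seq peaks but not in HM-1 controls. Neither source names the stage of the peaks. The deposited plasmid and HM-1 control lists hold counts of reads per fragment, and the sorted lists hold coordinates alone.

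Starts of the sorted lists were moved by 1 bp, after which 82.2% of the fragments on the chosen sites were identical to a plasmid fragment (2.02% before). The rest match none and 86 match an HM-1 control fragment, although the methods describe both filters. Overlapping intervals were merged into sites (minimum overlap 1 bp) and assigned to the nearest GENCODE start. The members and gene lists were chosen with earlier results of these data known. Named were the 10 sites with most positive sets, 3 sites positive at each later stage alone, and up to 30 sites of the lists. Spi1, Cdh5, Sox18, Nkx2-5, Pf4, Rac2, Hcls1 and Laptm5 lie beyond these 30 and were named after their values were seen. Some items are not reported here.

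Values were distinct fragments per 10000 promoter fragments. Groups of 5 replicates were compared by exact two-sided permutation tests (Benjamini-Hochberg adjusted over 4 stages), and High against Low by limma on log2 of fragments per 10000 plus 1, where at least 4 sets listed the site. Both were checked on simulated data. Same-numbered replicates deviated together in 2 of 16 comparisons (all pairs over 0.1, lowest r 0.106), ES against HB over all gates and positive against Negative in HB. Tools were R 4.3.3, limma 3.58.1, Python 3.11.15, numpy 2.4.6, pandas 2.3.3, scipy 1.17.1 and matplotlib 3.10.9. Alternatives covered merging, gates, replicates, the replicate block, scale, denominator, plasmid identity and left-out libraries. Leaving out 4 HE1 libraries was chosen after seeing the data.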

Additional observations from a re-analysis of the deposited data

Results flagged for a closer look

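In 2 of 23 groups of 5 replicates 1 sample stood far from the others, where chance gives about 1 in 20. Replicate 3 was the highest of the ES positive gates, at 43.7 fragments per 10000 on sites chosen without it. Replicate 3 was also the highest of the HP Low gates on the 2278 sites, at 584.2 per 10000. Beyond the promoter lists, a distal-list fragment of ES overlapped 19 of the 2278 sites. A fragment of the HM-1 control lists overlapped 164 of the sites (7.20%), against 22.3% of the comparison sites.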

How the results depend on the processing

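The number of sites depended on the support asked for. It was 778 with 3 or more positive replicates, 1335 with High and Medium/High gates alone, and 1013 to 2278 when 1 replicate was left out (1013 without replicate 1, 1087 without replicate 2). The other 7 alternatives gave 1649 to 2279 sites. With the replicate block, a paired exact sign-flip test, the ES differences kept their size (232, 279, 299 and 276 per 10000 for HB, HE1, HE2 and HP over all gates, and 235, 298, 284 and 266 in Negative cells), and p was 0.0625, the smallest that 32 sign patterns allow. With 3 or more positive replicates they were 108, 157, 136 and 144 over all gates. Leaving out 1 replicate gave 131 to 223, 201 to 267, 158 to 283 and 169 to 257 over all gates, and 146 to 222, 205 to 291, 159 to 277 and 162 to 266 in Negative cells. Differences between gates changed sign under some settings, except High minus Low in HE2, which stayed negative under all of them. Positive minus Negative became 0.0101 on the log2 scale in HP, and with plasmid-identical fragments alone 8.86 in HE1 and 0.27 in HP, while High minus Low became 14.5 in HB. Without 1 replicate, positive minus Negative ran from -32.5 to 5.99 (HB), -45.5 to -8.05 (HE1), -20.0 to 32.7 (HE2) and -29.3 to 14.9 (HP), and High minus Low from -31.3 to 16.8, -6.60 to 46.8, -99.1 to -16.1 and -38.9 to 2.46. The causes were not tested. By limma, which was conservative on these lists, 0 sites passed in all 36 alternatives, so these do not show that the gates are alike. Replicates 3 to 5 were shallower than replicates 1 and 2, so sites absent from them may have been missed. Replicate 3 was also uneven by stage. Over all gates it held 33622 distinct promoter fragments in ES and 28575 in HB, but 7775 in HE1, 11615 in HE2 and 3008 in HP.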

Other observations

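The share of promoter sites that were positive after ES only varied with gene type and position. It was 12.2% of 16250 sites at protein-coding genes, 19.5% of 476 at lincRNA genes, 20.7% of 415 at antisense genes and 25.3% of 190 at miRNA genes. It was 8.01% of 8875 sites within 100 bp of a start, 12.9% of 6260 between 100 and 500 bp and 28.1% of 2557 between 500 and 1500 bp. The 4 pluripotency gene sites lay near Lin28a (at -1049 bp from the start), Pou5f1 (661 bp), Gdf3 (-91 bp) and Sox2 (689 bp), with 19, 7, 3 and 7 fragments. Another site held ES fragments at Pou5f1 (4), Sox2 (2) and Gdf3 (1), while Lin28a had 1 site.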
